A study of Mus musculus with 2 samples.

Results

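Chromatin remodeller and histone modifier genes were examined for peaks of DPPA2, a DNA-binding protein of early embryonic and germline cells, in mouse embryonic stem cells. The set holds every RefSeq protein-coding gene whose symbol begins with Smarc, Kdm, Kmt2 or Hdac, is Chd followed by a digit, or is Ezh1, Ezh2, Eed, Suz12, Setdb1, Ehmt1 or Ehmt2. It came to 64 of 21887 protein-coding genes, chosen by name and not by any measured value. The cells were R1/E, an established line described in the series text as p53+/+ and kept on gelatin with leukemia inhibitory factor. DPPA2-bound DNA from formaldehyde-fixed cells was sequenced (ChIP-seq), with 1 untreated library and 1 made 8 h after adriamycin was given. Adriamycin (doxorubicin) is a topoisomerase poison that breaks DNA, and the study asked where DPPA2 sits after such damage. The same DPPA2 antibody was used for both, and the libraries carry the same batch label. The treated sample's genotype field holds the drug and time, its treatment field speaks of inducing apoptosis, and its group was read from its title. A peak list of 1 DNA-binding protein measures no expression, so the cell type label could not be checked against markers.

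The products of these genes move, open or mark nucleosomes. SMARC and CHD proteins are the motors and subunits of remodelling complexes such as SWI/SNF, ISWI and NuRD. KMT2 enzymes methylate lysine 4 of histone H3 within COMPASS-type complexes, and PRC2, built from EZH1 or EZH2 with EED and SUZ12, methylates lysine 27. SETDB1, EHMT1 and EHMT2 methylate lysine 9, KDM enzymes remove methyl groups, and HDAC enzymes remove acetyl groups. DPPA2, with its partner DPPA4, is known from work in embryonic stem cells to occupy CpG-rich promoters where COMPASS and Polycomb marks lie together.

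The starts of 4 members lay closest to a DPPA2 summit, the highest point of a peak. Their sequences are shown because these starts met a summit most directly. The stretches are set by the start and not by the peak, so the peaks cover them only in part. The adriamycin peak of Kdm2b lies outside its stretch. Each runs from 200 bases before an annotated transcription start to 30 bases from the start onward, 5′ to 3′ on the gene's strand, from RefSeq on GRCm38.p6 (the mm10 build). CpG dinucleotides are in capitals. Smarca5 lies at chr8:80739430-80739659 on the minus strand, Hdac2 at chr10:36974344-36974573 on the plus strand, Chd8 at chr14:52257731-52257960 on the minus strand, and the internal start of Kdm2b at chr5:122900338-122900567 on the minus strand.
Smarca5: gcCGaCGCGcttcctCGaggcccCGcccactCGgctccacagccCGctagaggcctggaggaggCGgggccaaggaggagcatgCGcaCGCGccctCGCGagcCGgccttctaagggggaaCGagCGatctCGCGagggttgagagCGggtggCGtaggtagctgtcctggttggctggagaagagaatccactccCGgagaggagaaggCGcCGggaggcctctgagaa
Hdac2: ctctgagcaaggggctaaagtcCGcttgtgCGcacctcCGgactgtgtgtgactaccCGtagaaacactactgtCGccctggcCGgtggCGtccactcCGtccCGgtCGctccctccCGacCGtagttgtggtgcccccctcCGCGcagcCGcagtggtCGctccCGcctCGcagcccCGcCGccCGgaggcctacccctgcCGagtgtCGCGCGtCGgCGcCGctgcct
Chd8: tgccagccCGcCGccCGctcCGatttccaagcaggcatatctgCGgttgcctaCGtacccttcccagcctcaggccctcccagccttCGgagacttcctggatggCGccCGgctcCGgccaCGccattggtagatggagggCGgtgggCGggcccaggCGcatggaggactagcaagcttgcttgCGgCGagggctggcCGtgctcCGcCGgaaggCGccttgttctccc
Kdm2b: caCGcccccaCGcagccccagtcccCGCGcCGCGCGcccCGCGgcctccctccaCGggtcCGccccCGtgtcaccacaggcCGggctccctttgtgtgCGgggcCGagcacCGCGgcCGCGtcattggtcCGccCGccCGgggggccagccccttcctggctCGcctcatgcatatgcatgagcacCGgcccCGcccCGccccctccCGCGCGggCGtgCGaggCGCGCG
Every one of these stretches of 230 bases was CpG-rich, with 23 CpGs in Smarca5, 28 in Hdac2, 20 in Chd8 and 34 in Kdm2b. Their G+C content was 68.7% in Smarca5 and Chd8, 70.9% in Hdac2 and 80.0% in Kdm2b. None held TATAAA on either strand. The GC box letters GGGCGG stood 5 times in Kdm2b on both strands together, 3 times in Chd8, and 1 time each in Smarca5 and Hdac2.

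DPPA2 peaks stood at the ends of 15 of the 64 genes in the adriamycin list and of 5 in the untreated list. A gene-end peak is one whose summit lies within 1 kb of either end of the gene. The 5 untreated genes were Smarca5, Chd6, Kmt2c, Hdac4 and Ezh2, and each of them was also called in the adriamycin list. The adriamycin list added Smarcad1, Smarcc1, Smarce1, Chd4, Chd7, Chd8, Kdm1a, Hdac2, Eed and Setdb1. The untreated share was 7.81% (95% exact Clopper-Pearson interval 2.59 to 17.3%), beside 5.78% of all protein-coding genes. The adriamycin share was 23.4% (13.8 to 35.7%), beside 16.0% of all genes. Both lists called 5 members (7.81%), beside 4.51% of all genes. The intervals of the untreated and adriamycin shares include the share of all genes, so the members' shares were not distinguishable from it. The 5 shared genes were 100% of the untreated and 33.3% of the adriamycin members called, beside 78.0% and 28.1% over all genes. With 1 library per group there is no test between the lists and no replicate spread, and intervals cover counting error only.

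When peaks inside the genes were added, 18 members (28.1%, 17.6 to 40.8%) carried a peak in the untreated list and 36 (56.3%, 43.3 to 68.6%) in the adriamycin list. The shares of all protein-coding genes were 13.2% and 30.2%, and both intervals lay above them. The members are long genes, with a median of 50.5 kb against 17.2 kb for all. Long genes offer more room for a peak, but whether length accounts for the higher shares was not tested. Among members of at least 50 kb, 13 of 32 had a peak untreated (40.6%, 23.7 to 59.4%) and 20 of 32 with adriamycin (62.5%, 43.7 to 78.9%), beside 30.4% and 59.5% of all genes that long. Among shorter members, 5 of 32 had one untreated (15.6%, 5.28 to 32.8%), beside 8.23%, and 16 of 32 with adriamycin (50.0%, 31.9 to 68.1%), beside 21.7%. Per megabase of gene beyond 1 kb from the ends, members held 3.09 untreated peaks (exact Poisson interval 1.77 to 5.01), beside 2.25 over all genes. In the adriamycin list they held 6.95 (4.87 to 9.62) per megabase, beside 5.91. Peak density inside the members was thus not distinguishable from that of other genes, while the interval for shorter members in the adriamycin list lay above the share of all short genes. Lengths within that class were not matched, and the split at 50 kb was chosen after the values were seen. All 18 genes with an untreated peak also had an adriamycin peak. Of all genes, 2899 had a peak untreated, 6620 with adriamycin and 6983 in at least 1 list. Most genes with an untreated peak were thus called in both lists over all genes too. The other 28 genes without an adriamycin peak (43.8% of members) had none in either list. Of all genes 31.9% had a peak in at least 1 list.

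**Figure D1:**
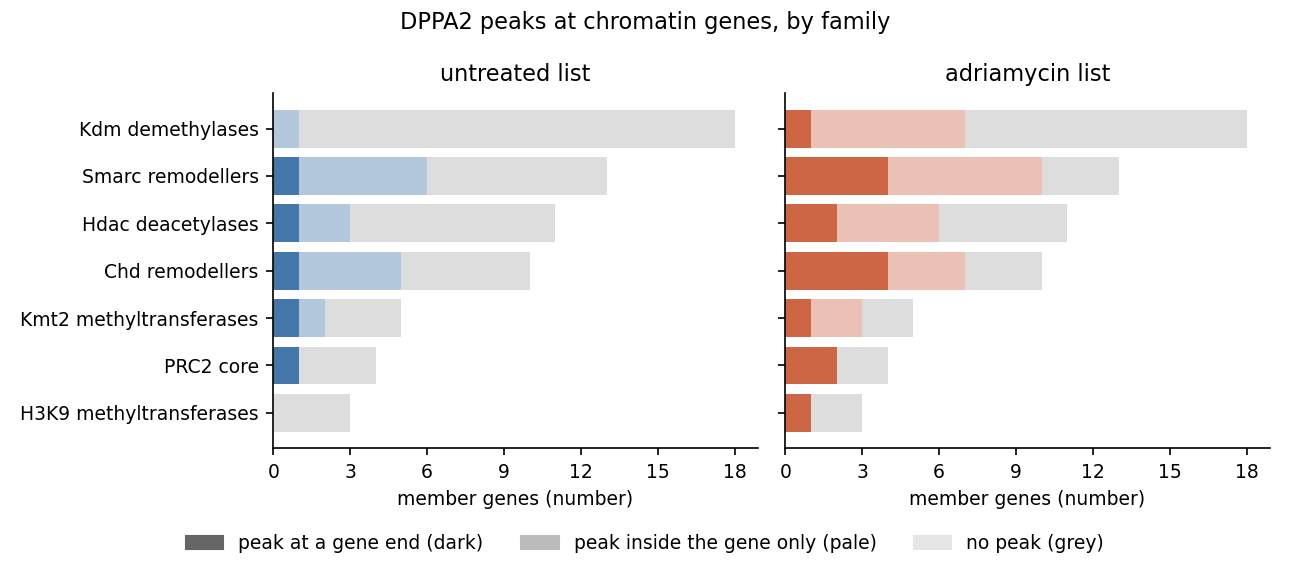
Member genes of each family (number, x axis) by where their DPPA2 peaks lie, in the untreated list (left) and the adriamycin list (right). Dark bars are genes with a peak at an end, pale bars genes with a peak inside only, and grey bars genes with none; Kdm genes, 18 in all, have 1 gene with an end peak on the right, and Smarc and Chd have 4 each.

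Among the 13 SMARC genes, 4 were called at an end with adriamycin and 1 untreated, and a further 6 and 5 carried peaks inside only. Over all genes the gene-end shares were 16.0% with adriamycin and 5.78% untreated, and the shares with any peak 30.2% and 13.2%. The counts of this and the following families stand beside these shares, and no family was tested against them. Smarca5, the ATPase of ISWI remodellers (chromosome 8, 80699943 to 80739459), was the one called in both. Its untreated summit lay 43 bp upstream of the start, covered by 12 fragments (6.20 to 20.96), and its adriamycin summit 59 bp downstream, covered by 20 (12.2 to 30.9). The fold enrichments, the authors' caller's ratio of summit to local background, were 3.53 and 6.73, and the fragment intervals overlap. Fold and fragments are not scaled between the libraries, so a difference between them shows no change here or below. Smarcc1, a core SWI/SNF subunit (chromosome 9, 110132024 to 110240178), had an adriamycin summit 169 bp downstream of its start with 12 fragments (6.20 to 20.96) and a fold of 4.64. Smarcad1, a remodeller linked to heterochromatin and to repair of broken DNA (chromosome 6, 65042591 to 65116061), had one 269 bp downstream with 11 fragments (5.49 to 19.7) and a fold of 4.17. Smarce1, a DNA-binding SWI/SNF subunit (chromosome 11, 99209047 to 99231017), had one 537 bp inside its higher-coordinate end, with 11 fragments and a fold of 4.38. No untreated summit lay nearer than 5218 bp to Smarcc1, 92640 bp to Smarcad1 or 89027 bp to Smarce1.

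The main SWI/SNF ATPase gene Smarca4 (chromosome 9, 21616106 to 21704230) had no gene-end peak. It carried 2 peaks inside in the adriamycin list, 61969 and 84961 bp beyond its start, with 15 and 13 fragments and folds of 4.71 and 4.40. Its paralog Smarca2 (chromosome 19, 26605073 to 26778321) had a peak at the same point in both lists, with summits 2 bp apart, 11 fragments (5.49 to 19.7) untreated and 17 (9.90 to 27.2) with adriamycin, and folds of 4.11 and 7.26. Smarcal1, which encodes a helicase that rewinds DNA at stalled replication forks (chromosome 1, 72536695 to 72636790), had 2 inside peaks in each list, and both pairs overlapped. The stronger had folds of 5.52 untreated and 6.54 with adriamycin. Smarca1, the other ISWI ATPase gene (chromosome X, 47809370 to 47892613), had folds of 5.93 and 4.93 at a shared peak over the lowest local background of each list. Smarcd3, another SWI/SNF subunit gene, had folds of 4.93 and 4.83 at a shared inside peak. Smarcb1, a core subunit gene, Smarcc2 and Smarcd2 had no peak in either list.

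The strongest peak of the whole set lay inside Smarcd1, a SWI/SNF subunit gene (chromosome 15, 99702287 to 99713995). Its summit was covered by 186 fragments (160 to 215) untreated, in a peak at 99707868 to 99708402, and by 246 (216 to 279) with adriamycin, at 99707870 to 99708409. The folds were 22.6 and 24.7, ranks 20 of 7043 and 10 of 16229 in the lists, and the summits were 15 bp apart, 5787 and 5772 bp beyond the start. No other annotated gene lay within 1 kb of it. Of the 19 shared pairs of the set, it was the 1 whose fragment intervals do not overlap. The same count over all shared peaks was not taken. Fragments are not scaled between the libraries, so the gap shows no change. The local background there was 7.26 fragments untreated and 9 with adriamycin, 6.09 and 8.76 times the genome-wide value. No input profile was used here, and the part of that background in the peak was not tested. All other member peaks had at most 40 fragments.

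Of the 10 CHD genes, 4 were called at an end with adriamycin and 1 untreated, beside 16.0% and 5.78% of all genes. Chd6 (chromosome 2, 160946978 to 161109086) was called in both, 313 bp downstream of its start untreated and 399 bp with adriamycin, with 14 fragments (7.65 to 23.5) in each and folds of 4.63 and 4.60. Chd8, a remodeller gene known for its link to autism (chromosome 14, 52198151 to 52258042), had its adriamycin summit 26 bp downstream of the start with 10 fragments (4.80 to 18.4) and a fold of 4.58. Chd7, whose human counterpart is mutated in CHARGE syndrome (chromosome 4, 8690402 to 8868449), had 4 adriamycin peaks, more than any other member. The first lay 703 bp inside its lower-coordinate end, with 11 fragments and a fold of 4.32. The fourth, 2570 bp inside the other end, had a fold of 6.10 and overlapped the single untreated peak of the gene, with a fold of 4.58. Chd4, the NuRD ATPase gene (chromosome 6, 125095980 to 125130591), differed in position. Its adriamycin summit, with 15 fragments (8.40 to 24.7) and a fold of 5.10, lay at the far end of the gene, 34019 bp beyond the nearest start and 409 bp inside the end, and no other gene lay within 1 kb.

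The other NuRD-type ATPase genes carried peaks inside. Chd3 had a shared peak with folds of 4.59 and 4.96, and Chd5 one with folds of 3.83 and 6.20, covered by 16 fragments (9.15 to 25.98) untreated and 28 (18.6 to 40.5) with adriamycin. Chd9 (chromosome 8, 90828302 to 91054516) had 1 inside peak in each list, with folds of 6.64 and 6.38, but at different places, 66.1 and 166 kb from its starting end. It was therefore called in both lists without sharing a peak. Chd1, Chd1l and Chd2 had none.

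Demethylase genes formed the largest family, and 1 of 18 had a gene-end peak. That gene was Kdm1a, the lysine 4 demethylase LSD1 (chromosome 4, 136550533 to 136602787), called in the adriamycin list 340 bp downstream of its start with 19 fragments (11.4 to 29.7) and a fold of 5.65. The nearest untreated summit was 125807 bp away. A further 6 Kdm genes had adriamycin peaks inside (Kdm1b, Kdm2b, Kdm4a, Kdm4c, Kdm4d and Kdm6b) and 1, Kdm2b, an untreated one. Kdm1b, the paralog of Kdm1a (chromosome 13, 47043373 to 47085279), had the second highest fold of any member in the adriamycin list, 7.45, with 20 fragments (12.2 to 30.9), at 12741 bp beyond its start. Kdm4c had the weakest coverage in the set, 7 fragments (2.81 to 14.4). The other 11 Kdm genes, among them Kdm5a, Kdm5b, Kdm5c, Kdm5d and Kdm6a, had no peak.

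Kdm2b, whose product binds unmethylated CpGs and recruits a Polycomb complex (chromosome 5, 122870664 to 122989270), showed that a peak inside a gene can be a start-site peak. RefSeq lists starts near its outer end and others about 88.9 kb further in. As background, the internal start gives a shorter protein without the demethylase domain. The untreated summit lay 3 bp upstream of the internal start at 122900367, with 15 fragments (8.40 to 24.7) and a fold of 4.49. The adriamycin summit lay 218 bp downstream of the nearest start, another of the internal ones, with 14 (7.65 to 23.5) and a fold of 4.55. No peak was called at the outer starts. The second such gene was Hdac4, which encodes a class IIa deacetylase (chromosome 1, 91928779 to 92195702). The start listed for it, at 92180341, lies inside the gene and away from its outer end. Summits stood 290 bp downstream of it untreated, with 17 fragments (9.90 to 27.2) and a fold of 4.92, and 265 bp downstream with adriamycin, with 25 (16.2 to 36.9) and a fold of 5.96.

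Among the 5 Kmt2 genes, Kmt2c had a gene-end peak in both lists. Kmt2c (chromosome 5, 25271795 to 25498855), like Kmt2d an enhancer-linked lysine 4 methyltransferase gene, had its untreated summit 647 bp downstream of its start with 10 fragments (4.80 to 18.4) and a fold of 3.82. The adriamycin summit lay 461 bp downstream with 18 fragments (10.7 to 28.4) and a fold of 6.21. Kmt2d (chromosome 15, 98831669 to 98874077) had a shared inside peak with 20 fragments (12.2 to 30.9) untreated and 40 (28.6 to 54.5) with adriamycin, the highest coverage after Smarcd1, and folds of 4.93 and 6.88. Its intervals overlap, if narrowly. Kmt2a had 1 inside peak in the adriamycin list with a fold of 4.07. Kmt2b and Kmt2e had none.

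Of 11 deacetylase genes, 2 were called at an end with adriamycin and 1 untreated, beside 16.0% and 5.78% of all genes. Hdac2, a class I enzyme gene shared by several corepressor complexes (chromosome 10, 36974297 to 37001889), had its adriamycin summit 5 bp upstream of its start with 13 fragments (6.92 to 22.2) and a fold of 5.74. The nearest untreated summit was 698056 bp away. The gene-end peaks of Hdac4 lay at its far end, 119 bp inside untreated, with 19 fragments (11.4 to 29.7) and a fold of 4.83, and at 166 and 649 bp with adriamycin, each with 17 fragments (9.90 to 27.2). Hdac4 thus carried DPPA2 peaks at its listed start and at its opposite end in both lists. By the usual classes, grouped after the values were seen, all 4 class IIa genes (Hdac4, Hdac5, Hdac7 and Hdac9) had an adriamycin peak. So did the 1 class IV gene, Hdac11, against 1 of the 4 class I genes and 0 of the 2 class IIb genes. Of all genes 30.2% had one, with 59.5% among those of at least 50 kb and 21.7% among shorter ones. These class IIa genes measured 34.4 to 870 kb and the class I genes 18.045 to 221 kb. Hdac9 (chromosome 12, 34047580 to 34917095), the longest member, had a shared peak 10.4 kb beyond its start with folds of 5.77 and 5.90. Hdac5 had 2 adriamycin peaks, the stronger with 29 fragments (19.4 to 41.6) and a fold of 6.07, and no untreated peak. Hdac7 had 3 adriamycin peaks and 1 untreated, and Hdac11 1 adriamycin peak. Hdac1, Hdac3, Hdac6, Hdac8 and Hdac10 had none.

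Of the PRC2 genes, Ezh2 and Eed had gene-end peaks and Suz12 and Ezh1 had none. Ezh2, the catalytic subunit gene (chromosome 6, 47530274 to 47595270), was called in both lists. Its summit lay 140 bp downstream of the start untreated, with 15 fragments (8.40 to 24.7) and a fold of 5.52, and 312 bp downstream with adriamycin, with 13 (6.92 to 22.2) and a fold of 4.79. The lncRNA gene F830010H11Rik has an end within 1 kb of both summits, which made Ezh2 the 1 member of the 15 whose gene-end peak also lay at another annotated gene. Eed, the subunit that reads methylated lysine 27 (chromosome 7, 89954654 to 89980976), had an adriamycin summit 604 bp downstream of its start with 10 fragments (4.80 to 18.4) and a fold of 4.55. The nearest summit to Suz12, the scaffold subunit, was 46717 bp away untreated and 46666 bp with adriamycin. Of the lysine 9 methyltransferase genes, Setdb1, which silences retroelements (chromosome 3, 95323525 to 95357202), had an adriamycin summit 710 bp downstream of its start. That peak had the lowest coverage of any gene-end peak of the set, with 8 fragments (3.45 to 15.8) and a fold of 3.69. Ehmt1 and Ehmt2 had none.

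**Figure D2:**
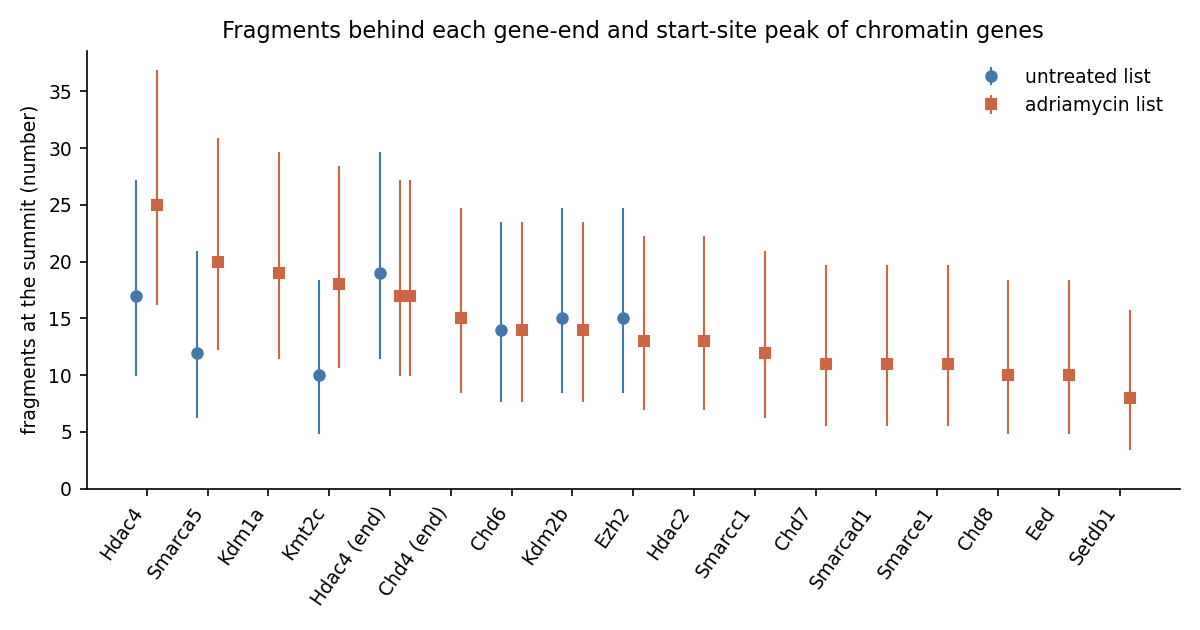
Fragments at the summit (number, y axis) of each gene-end or start-site peak of the members, with exact 95% Poisson intervals as bars, for the untreated list (circles) and the adriamycin list (squares). The label (end) marks far-end peaks; all values lie between 8 and 25 fragments, and the intervals of the 7 shared peaks overlap.

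Most gene-end peaks stood at the starting end of the gene and just downstream of the start. The promoter table, which gives strand, held an entry for 49 of the 64 members, 64 starts in all. Among these genes the gene-end peak lay at the starting end for 4 of 5 untreated and 11 of 13 with adriamycin, beside 87.2% and 89.3% over all genes. The exceptions were Hdac4 and Chd4. Counting summits within 1 kb of any annotated start, 6 of the 49 members (12.2%, 4.63 to 24.8%) had a start-site peak untreated, beside 5.91% of all genes with a start. With adriamycin 13 had one (26.5%, 14.9 to 41.1%), beside 15.8%, and both intervals include the share of all genes. All 6 untreated genes (Smarca5, Chd6, Kdm2b, Kmt2c, Hdac4 and Ezh2) were among the 13. The matching share of all genes with a start was not taken, so this overlap shows nothing particular to the members. For gene-end peaks, 78.0% of all genes called untreated were also called with adriamycin. Of the 13 adriamycin summits, 12 lay downstream of the start, beside 77.9% of such summits over all genes, and of the 6 untreated summits 4 did, beside 78.6%. Neither interval (64.0 to 99.8% and 22.3 to 95.7%) excludes the value for all genes. Inside peaks at an internal start were 2 of 13 untreated and 2 of 31 with adriamycin, those of Kdm2b and Hdac4, beside 10.4% and 10.2% of inside peaks over all genes.

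**Figure D3:**
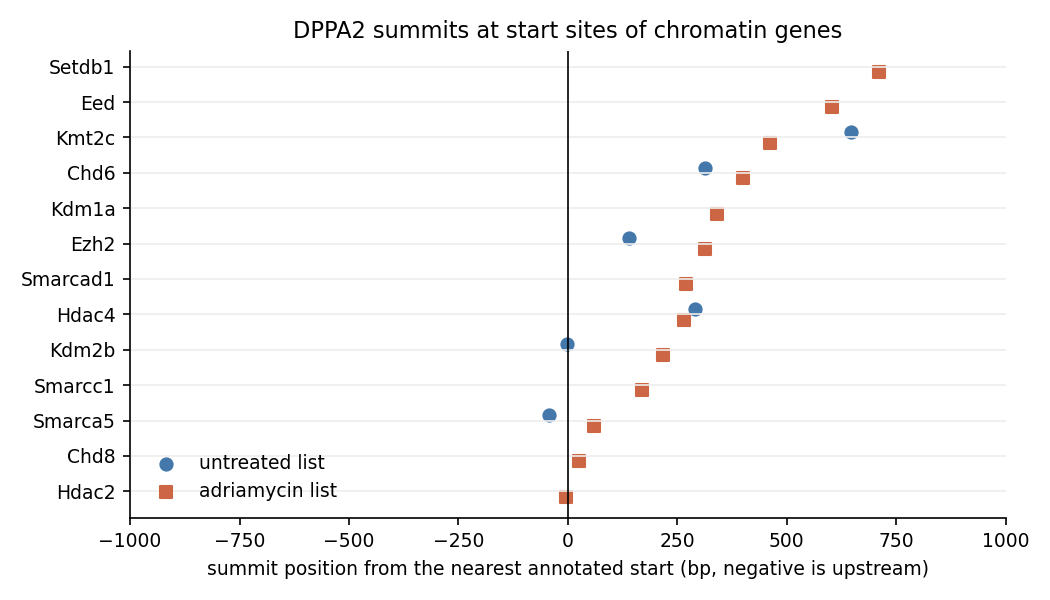
Position of each start-site summit from the nearest annotated start (bp, x axis, negative upstream) for 13 members, in the untreated list (circles) and the adriamycin list (squares). Adriamycin summits run from 5 bp upstream at Hdac2 to 710 bp downstream at Setdb1, and the untreated summits of Smarca5 and Kdm2b lie upstream of the start.

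Of the 13 members with an adriamycin start-site peak, 12 had a CpG-rich start, as did most members. A start window, 250 bases before to 50 after the outermost listed start, was called CpG-rich with at least 50% G+C and an observed over expected CpG ratio of at least 0.6. For Kdm2b this is the outer start, not the internal one under its peak. By this limit 40 of 49 members (81.6%) were CpG-rich, against 45.8% of all genes. The median CpG ratio was 0.97 at the 6 members with an untreated start-site peak and 0.98 at the 13 with an adriamycin one, against 0.82 at the 36 members without. Over all genes it was 0.81 with an adriamycin start-site peak and 0.49 without. Within CpG-rich starts, 30.0% of members (12 of 40, 16.6 to 46.5%) had an adriamycin start-site peak, beside 25.8% of all CpG-rich genes. The untreated share was 15.0% (6 of 40, 5.71 to 29.8%), beside 9.32%. Of CpG-poor starts, 0 of 9 members had an untreated peak, beside 3.02% of all such genes. With adriamycin 1 of 9 had one, beside 7.42% of all such genes, and this was Smarcad1, with 47.3% G+C and a CpG ratio of 1.13. Suz12, with 41 CpGs and a ratio of 1.09, Kmt2a, with 36 and 0.84, and Kdm7a, with 65 CpGs in its window, had no start-site peak, so a CpG-rich start was not always called.

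**Figure D4:**
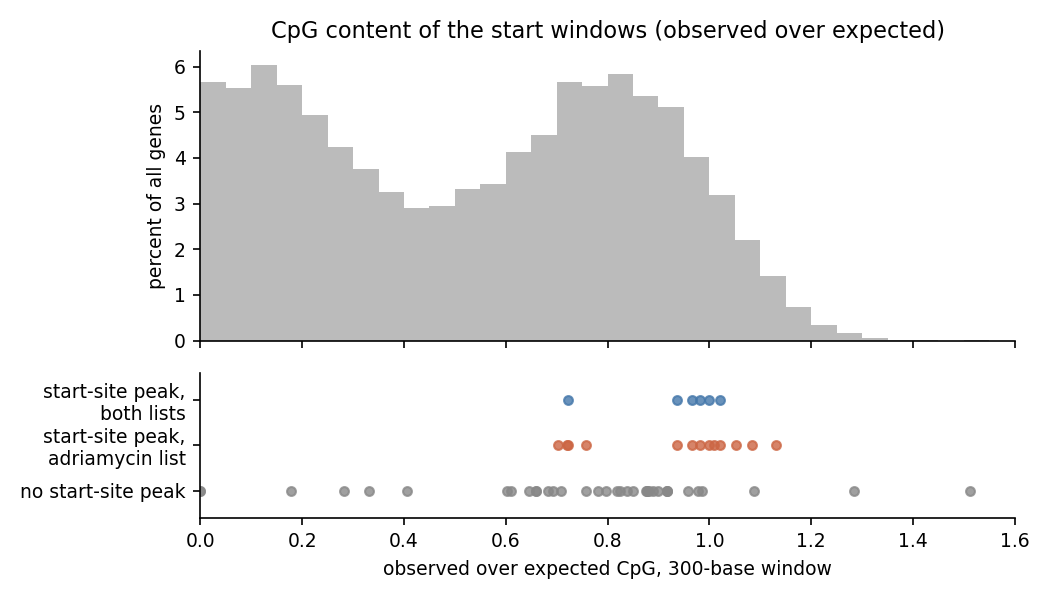
Observed over expected CpG ratio (x axis) of the 300-base window at the outermost start. Grey bars give the percent of all genes; points are members without a start-site peak, with one in the adriamycin list, and with one in both lists, the last lying between 0.72 and 1.02.

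Short motifs were searched in the same windows on both strands. GGGCGG stood in 36 of 49 members (73.5%), against 46.3% of all genes, and in 9 of the 13 with an adriamycin start-site peak and 27 of the 36 without. It contains a CpG and so overlaps with CpG content. CCAAT stood in 7 of the 13 and 13 of the 36, beside 39.2% of all genes. The TATA box letters TATAAA were in none of the 13 and in 4 of the 36, beside 13.3% of all genes. The E-box letters CACGTG were in none of the 13 and in 3 of the 36, beside 7.91%. The AP-1 letters TGACTCA were in none of the 13 and in 4 of the 36, beside 4.56%. The p53 decamer, the short motif of which a p53 response element holds a pair, was found in 2 of the 13 and 2 of the 36, beside 7.33% of all genes. These matches describe the letters of the windows and show no binding.

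Peaks of the members were compared between the lists by overlap. Of 21 untreated member peaks 19 (90.5%, 69.6 to 98.8%) overlapped an adriamycin peak, beside 79.7% of all untreated peaks. Of 52 adriamycin member peaks the same 19 pairs made up 36.5% (23.6 to 51.0%), beside 34.4% of all. At equal list length 57.1% of the untreated member peaks (12 of 21) and 70.6% of the adriamycin ones (12 of 17) overlapped. At a fold of at least 5, 50% (3 of 6) and 16.7% (3 of 18) did. The shares of all peaks were not taken at these 2 settings, so these values show nothing particular to the members. The pairs fell in 17 genes, and their summits were 2 to 298 bp apart, with a median of 76 bp. The 2 untreated peaks without a counterpart lay in Chd3 and Chd9. Folds at the 5 untreated gene-end peaks ran from 3.53 to 5.52 with a median of 4.63, against 4.69 over all untreated gene-end peaks. Those at the 16 adriamycin gene-end peaks ran from 3.69 to 6.73 with a median of 4.59, against 4.79 over all. The median gene-end peak of a member had 14 fragments untreated and 13 with adriamycin, and 14 over all gene-end peaks in each list. The lowest coverage of any called peak was 7 fragments untreated and 6 with adriamycin. A start with no peak may therefore hold DPPA2 signal below what these lists could show.

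**Figure D5:**
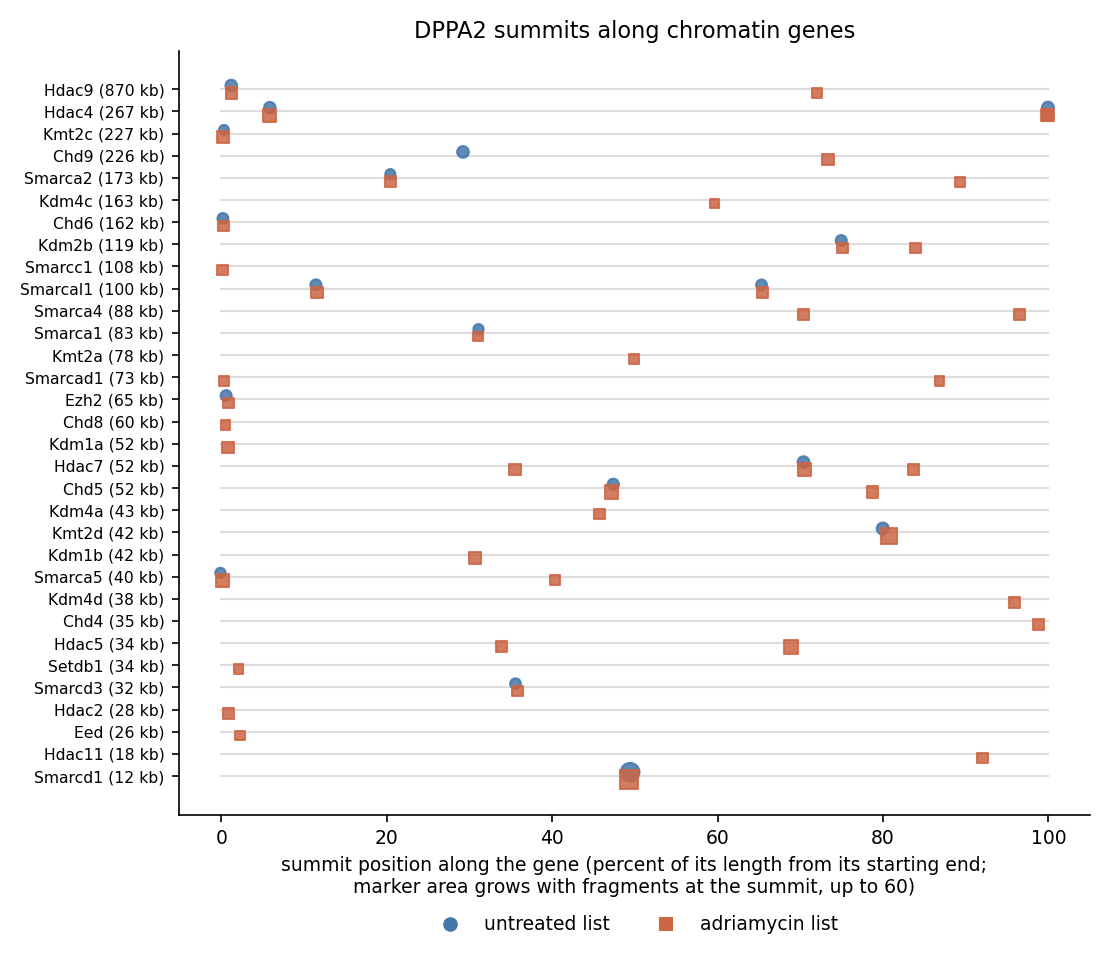
Summit positions along the members with a known strand (percent of gene length from the starting end, x axis; genes ordered by length in kb), in the untreated list (circles) and the adriamycin list (squares), with marker area growing with fragments. Summits gather at the left edge, while Hdac4 and Chd4 have peaks at the right edge and Smarcd1 has its strongly covered peak near the middle.

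Several summits lay near the 1 kb limit of the rule. Just inside were the gene-end summits of Kmt2c, 719 bp from the end untreated (fold 3.82), and with adriamycin those of Setdb1 at 710 bp (3.69), Chd7 at 703 bp (4.32), Hdac4 at 649 bp (3.95) and Eed at 604 bp (4.55). Inside the genes but past the limit were adriamycin summits of Hdac11, 1432 bp from its end (5.00), and Kdm4d, 1558 bp (4.85). Just outside the genes and the limit were an untreated summit 1279 bp beyond the far end of Chd8 (fold 4.33, 12 fragments), and adriamycin summits 1375 bp beyond Kdm3b (4.90, 13 fragments) and 1865 bp beyond Kmt2b (3.30, 11 fragments). A peak 1812 bp outside Smarcal1 untreated (4.67, 16 fragments) had an adriamycin neighbour at 1880 bp (5.63, 17 fragments).

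At stricter limits fewer gene-end members were called in each list. At a q of at most 1e-05, 10 of 21 untreated and 19 of 52 adriamycin member peaks were left. Among them, gene-end peaks remained at Ezh2 and Hdac4 untreated, beside 2.10% of all genes. With adriamycin they remained at 5 genes, Smarca5, Chd4, Kmt2c, Kdm1a and Hdac2, beside 7.12%. No member was left in both lists. The share of all genes left in both was not taken, so this shows nothing particular to the members. Ezh2, Hdac4, Smarca5 and Kmt2c were called in both lists at the main limit, and each passed the stricter one in only 1 list. At that limit 9 members had any peak untreated (all genes 6.14%) and 18 with adriamycin (15.9%). Start-site peaks were left at 2 members untreated (2.12%) and 5 with adriamycin (7.11%). A fold of at least 5 left Ezh2 untreated, beside 2.14%, and the same 5 genes with adriamycin, beside 6.94%. Any peak of that strength was found at 6 members untreated (6.25%) and 17 with adriamycin (15.5%), and a start-site peak at 1 (2.19%) and 5 (6.98%).

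The adriamycin list is the longer one, and the 7043 peaks of lowest q in each list were compared as well. Of the adriamycin list 4 members then had a gene-end peak, against 5 untreated, beside 5.73% and 5.78% of all genes. Any peak was then found at 17 and 18 members (13.4% and 13.2% of all), and a start-site peak at 5 members with adriamycin (5.71%). The larger number of members called with adriamycin was not found at equal list length. Lists of equal length gave near-equal shares of all genes too, so this shows nothing particular to the members. A gene-end window of 500 bp gave 4 members untreated (4.08%) and 9 with adriamycin (12.2%), and one of 2500 bp gave 9 (7.57%) and 20 (20.6%). Counting any base of a peak gave 5 (6.06%) and 15 (16.8%).

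A list of 111 related genes was also counted. It holds partners of these proteins and also other histone methyltransferases, acetyltransferases, sirtuins and corepressors. The genes named from it were chosen after their values were seen. Gene-end peaks were called at 35 of the 111 (31.5%, 23.0 to 41.0%) in the adriamycin list, beside 16.0% of all genes. In the untreated list they were called at 13 (11.7%, 6.39 to 19.2%), beside 5.78%. Both intervals lay above the share of all genes, though gene length and CpG content were not matched. Both lists called 10 of the 111, beside 4.51% of all genes. Of 18 SWI/SNF partners 7 were called with adriamycin and 3 untreated, the strongest being Phf10, a subunit gene of the PBAF form, with folds of 5.22 untreated and 7.77 with adriamycin and 11 and 15 fragments. Of 24 PRC1 and PRC2 partners 8 were called with adriamycin and 2 untreated. The strongest was Rnf2, the PRC1 ubiquitin ligase gene, with folds of 5.26 and 5.49 and 19 fragments in each. Of 9 acetyltransferase genes 4 were called with adriamycin (Crebbp, Ep300, Kat2b and Kat6a) and 1 untreated, Kat2b, with folds of 6.05 and 7.10. Of 14 other methyltransferase genes 5 and 3 were called, of 11 ISWI and INO80 partners 4 and 2, and of 11 COMPASS partners 2 and 1. Of 7 sirtuin genes 2 and 0 were called, with Sirt1, a deacetylase gene, at a fold of 6.42 with adriamycin. Of 9 NuRD partners 1 and 1 were called, Mta1 with adriamycin and Mbd2 untreated, and of 8 corepressor genes 2 and 0.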

How the data were processed

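DPPA2 ChIP-seq peak lists of 1 untreated and 1 adriamycin library (8 h) were used. Per the submitters' processing notes reads were handled with MACS3 3.0.0b1, Bowtie2 2.5.1, deepTools 3.5.1, FastQC 0.12.1 and SAMtools, and the build was mm10. The sources used here give no filters, calling command or input control. Each library has its own list. The deposited fold is the authors' ratio of summit over local background; each peak also has a deposited −log10 p and a deposited −log10 q by the authors, and a deposited score that equals −log10 q times 10 without its decimals in 99.97% of untreated and 100% of adriamycin entries. A further deposited value gives the bp from peak start to summit.

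Fragments at a summit were recovered as the whole number that gives both fold (pseudocount 1) and −log10 p (Poisson upper tail, within 0.001), for 99.9% of peaks in each list. This is read from the values and stated in no source. The genome-wide background, the lowest recovered, was 1.19 fragments untreated and 1.03 with adriamycin. Of 7169 and 16371 entries, 7043 and 16229 lay on chromosomes 1 to 19, X and Y and were used.

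Genes came from a RefSeq table of GRCm38.p6 (the mm10 build), without exons, so exon and intron positions are not given. Starts and strand came from the RefSeq promoter table. Summits were assigned to genes within 1000 bp of an end or inside. Lists overlapped by at least 1 bp. No test was run between single libraries. The scripts were checked on simulated data. Python 3.11.15, numpy 2.4.6, pandas 2.3.3, scipy 1.17.1 and matplotlib 3.10.9 were used. Members were taken by name and not by value. The choice of this set, the lists and the limits was made with earlier results of these data known. Named genes were members with a gene-end peak in both lists, up to 12 with one in the adriamycin list alone (10 found), the 5 with the strongest inside peaks of each list, and a fixed set (Smarca4, Smarcb1, Chd4, Kdm1a, Hdac1, Hdac2, Ezh2, Eed, Suz12, Setdb1, Ehmt1, Ehmt2); other members are named by family or position, after their values were seen. The related genes and alternatives are those listed in the report and the closing section.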

Additional observations from a re-analysis of the deposited data

How the results depend on the processing

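Of 49 alternatives to 11 results, 17 left the value within 1.5 times (counts) or within its interval (shares), and 32 moved it. Peak strength and list length moved most values. At a q of at most 1e-05, gene-end members were 2 untreated, 5 with adriamycin and 0 in both, start-site members 2 and 5, members with any peak 9 and 18, member peaks 10 and 19, and 60% of untreated member peaks overlapped. At a fold of at least 5, gene-end members were 1, 5 and 0 in both, start-site members 1 and 5, members with any peak 6 and 17, member peaks 6 and 18, and 50.0% and 16.7% of peaks overlapped. With the 7043 peaks of lowest q in each list, the adriamycin list had 4 gene-end members, 2 of them shared with untreated. All genes gave 5.73%, and the 5 untreated gene-end members then stand beside 4. The adriamycin list had 5 start-site members, 17 members with any peak and 17 member peaks, and 57.1% and 70.6% of peaks overlapped. With a window of 500 bp, 9 adriamycin gene-end members and 3 shared were left, and with 2500 bp there were 9 untreated and 8 shared. Using any base of a peak changed no count of genes. The start-site counts were added after the data were seen. No paired analysis was possible because each group had 1 library, and for the same reason no replicate could be left out.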
